A study of Homo sapiens with 24 samples.

Results

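The nuclear-encoded subunits of the mitochondrial respiratory chain and ATP synthase were followed in 4 established glioblastoma cell lines by CAGE-Seq, which sequences the 5′ ends of capped transcripts. A gene was taken as a member if its row mapped to a protein-coding symbol of the NDUFA, NDUFB, NDUFC, NDUFS, NDUFV, SDH, UQCR, CYC1, COX4 to COX8 or ATP5 series and its mean reached 5 CPM (tag counts scaled to a common library total) over the libraries. Of 257 rows whose symbol followed that pattern, 167 were pseudogenes or other non-coding genes, 28 coding rows fell under 5 CPM, and 62 of the 43037 rows of the table were members. They comprised 30 subunits of complex I, 2 of complex II, 5 of complex III, 11 of complex IV and 14 of complex V.

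The lines were U87MG, T98G, U251MG and DBTRG-05MG. Each had been stably transduced with a lentivirus that carries WWOX behind the CMV promoter (“WWOX”) or with a blank puromycin lentivirus (“Vec”), and all groups shared transduction and puromycin selection. Each variant was sequenced in triplicate, which gave 8 groups and 24 libraries of 10756072 to 16953689 tags (median 14584829). T98G was grown in MEM, DBTRG-05MG in RPMI with pyruvate, and U251MG and U87MG in EMEM with pyruvate, so that differences between T98G or DBTRG-05MG and the rest cannot be told apart from the medium. As RNA of whole cultures was used, fewer expressing cells and less RNA per cell cannot be told apart either.

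The respiratory chain passes electrons from NADH (complex I) and succinate (complex II) through complex III and cytochrome c to oxygen at complex IV, and ATP synthase (complex V) uses the resulting proton gradient to make ATP. Most subunits are encoded in the nucleus, whereas a core set of complexes I, III, IV and V is encoded in mitochondrial DNA. Glioblastoma cells are known for high glycolysis while many keep a working respiratory chain. The 13 subunits encoded in mitochondrial DNA were listed at 0 in all 24 libraries, so the values below describe nuclear genes alone. Mitochondrial transcripts are known to lack the cap that CAGE traps, and whether mitochondrial reads were kept in mapping and counting is not given in the sources used here. Why these rows are at 0 was not tested.

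Promoters of the members were read from the RefSeq promoter table (GRCh38.p14, 250 bases before to 50 bases after the annotated start), which held 53 of the 62. Motifs were searched on both strands as exact letters. GCGCATG, the core of the nuclear respiratory factor 1 (NRF1) site, was present in 11 promoters (20.8%), against 4.43% of all 35116 promoters in the table and 7.51% of the 9744 promoters of genes tested here. AAGATGG, a YY1 site, was likewise present in 11 (20.8%), against 5.84% and 7.58%. CCGGAAG, the ETS site of GABPA (nuclear respiratory factor 2), was present in 14 (26.4%), against 10.3% and 19.2%. The GC box GGGCGG (67.9%, against 45.0% and 71.0%) and CCAAT (37.7%, against 34.6% and 36.8%) were near the share in tested genes. Sites of different motifs overlapped once, a GABPA and a GC box site in NDUFS3. Median GC content was 61.3% in the 53 promoters and 58.7% in all. Of the 53, 28 held an NRF1, GABPA or YY1 match and 25 held none, which says only that these letters are not in this window. The promoters of the members on which the comparisons below turn are shown 5′ to 3′, together with NDUFA6, whose window held both NRF1 and YY1 letters. Capitals mark NRF1 (GCGCATG or CATGCGC), GABPA (CCGGAAG or CTTCCGG) and YY1 (AAGATGG or CCATCTT) letters.
ATP5F1A (chr18:46104178-46104477, minus strand): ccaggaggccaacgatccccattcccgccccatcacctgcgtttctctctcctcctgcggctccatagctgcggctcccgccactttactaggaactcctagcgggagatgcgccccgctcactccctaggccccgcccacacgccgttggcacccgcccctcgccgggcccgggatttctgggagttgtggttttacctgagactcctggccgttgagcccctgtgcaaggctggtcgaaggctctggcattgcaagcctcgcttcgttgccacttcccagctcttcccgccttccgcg
UQCRC2 (chr16:21953111-21953410, plus strand): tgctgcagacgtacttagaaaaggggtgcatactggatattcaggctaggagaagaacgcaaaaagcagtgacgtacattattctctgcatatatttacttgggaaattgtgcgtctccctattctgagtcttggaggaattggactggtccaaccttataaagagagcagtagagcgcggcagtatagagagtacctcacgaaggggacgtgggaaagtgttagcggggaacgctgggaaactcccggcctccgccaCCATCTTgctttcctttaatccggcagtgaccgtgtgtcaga
COX4I1 (chr16:85799445-85799744, plus strand): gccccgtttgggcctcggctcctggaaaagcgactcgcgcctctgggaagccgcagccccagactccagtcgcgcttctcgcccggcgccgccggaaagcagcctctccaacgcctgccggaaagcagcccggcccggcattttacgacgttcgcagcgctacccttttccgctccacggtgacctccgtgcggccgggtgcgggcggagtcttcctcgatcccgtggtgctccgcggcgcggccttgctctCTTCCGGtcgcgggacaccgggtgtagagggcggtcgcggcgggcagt
COX6A1 (chr12:120437863-120438162, plus strand): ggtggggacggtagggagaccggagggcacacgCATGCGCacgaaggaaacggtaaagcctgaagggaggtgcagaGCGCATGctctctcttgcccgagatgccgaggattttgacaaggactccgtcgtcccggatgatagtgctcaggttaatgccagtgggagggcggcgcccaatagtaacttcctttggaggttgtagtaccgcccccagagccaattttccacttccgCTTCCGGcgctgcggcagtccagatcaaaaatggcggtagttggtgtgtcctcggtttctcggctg
COX7C (chr5:86617691-86617990, plus strand): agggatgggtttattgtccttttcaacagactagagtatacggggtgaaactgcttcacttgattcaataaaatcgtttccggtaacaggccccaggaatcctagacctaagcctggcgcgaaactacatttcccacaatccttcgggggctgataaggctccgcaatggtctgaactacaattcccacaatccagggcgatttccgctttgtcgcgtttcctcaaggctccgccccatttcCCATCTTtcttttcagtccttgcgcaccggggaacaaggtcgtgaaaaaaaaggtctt
NDUFA6 (chr22:42090723-42091022, minus strand): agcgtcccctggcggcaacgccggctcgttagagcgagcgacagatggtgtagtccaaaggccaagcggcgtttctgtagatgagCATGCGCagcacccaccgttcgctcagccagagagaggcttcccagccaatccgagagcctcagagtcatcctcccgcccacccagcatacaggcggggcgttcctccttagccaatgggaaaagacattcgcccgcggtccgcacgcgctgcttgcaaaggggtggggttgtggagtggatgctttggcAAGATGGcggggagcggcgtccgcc
COX6A1 held 2 NRF1 matches and 1 GABPA match, COX4I1 a GABPA match at 2 to 8 bases after the start, COX7C a YY1 match from 8 to 2 bases before the start, and UQCRC2 a YY1 match from 8 to 14 bases after it. ATP5F1A held none of the 3.

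The level of a subunit gene in these data went with where its transcript begins. For 27 of the 90 coding rows, the transcript start was shared with another annotated gene. Here some or all of the first 75 bases of the Ensembl canonical transcript (GENCODE 44) lay in an exon of the other gene. The window of 75 bases is the read length, and the exon was on the same strand in 18 rows and the opposite strand in 9. All 27 had a mean of at most 28.3 CPM. They comprised 22 of the 28 rows under 5 CPM and the 5 least abundant members, namely NDUFA13 (5.95 CPM), NDUFA11 (8.72 CPM), NDUFV2 (17.5 CPM), NDUFB2 (22.1 CPM) and ATP5PF (28.3 CPM, shared with GABPA). The other 57 members, with at least 86.0 CPM, had no shared start. The median was 0.414 CPM in the 27 rows and 259 CPM in the 63 others, and over all 19424 protein-coding rows it was 0.460 CPM with a shared start and 6.18 CPM without.

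Rows under the threshold thus included core subunits that every respiring cell uses. SDHA, the flavoprotein of complex II, was at 0.414 CPM and its membrane anchor SDHD at 0.550 CPM. COX8A of complex IV was at 1.12 CPM, UQCRB and UQCRQ of complex III at 1.49 and 1.12 CPM, and the ATP synthase stalk subunit ATP5PO at 0.167 CPM. NDUFB9, at 3.17 CPM, was the first row under the threshold and NDUFA13 the first above it. How tags in more than 1 gene were counted is not given in the sources used here, so a low value of these rows was not read as low expression. The cause of the low values was not tested. Of the 6 low rows with no shared start, COX4I2, COX7B2 and COX8C were at 0 in every library, COX7A1 gave 1 tag, ATP5MGL 5 tags and UQCRHL 169 tags in all libraries together; COX4I2, COX7A1, COX7B2 and COX8C are tissue-restricted paralogs of subunits of complex IV. COX6A2 (1 tag) and COX6B2 (6 tags), the heart and muscle and the testis forms, were under the threshold too. A count of 3 tags corresponded to 0.177 to 0.279 CPM, which is the limit that a 0 allows.

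**Figure D1:**
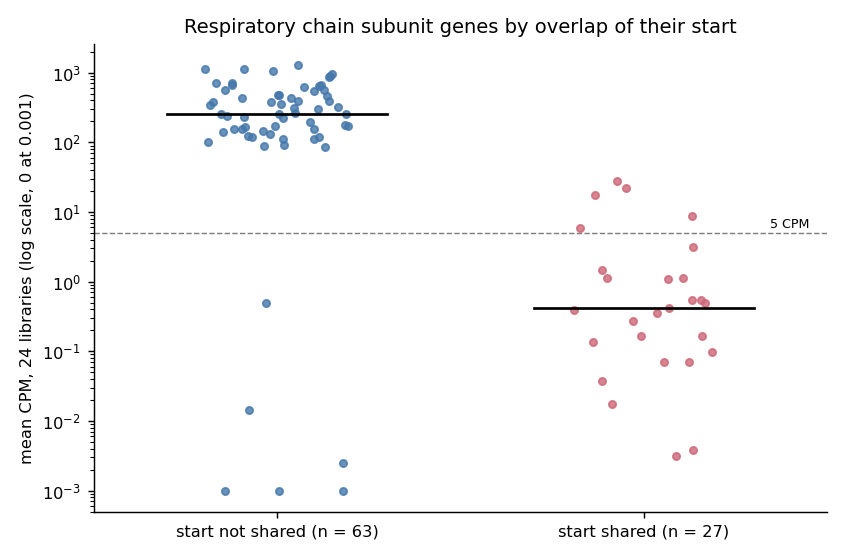
Mean CPM of the 90 protein-coding subunit rows over the 24 libraries (logarithmic axis, 0 drawn at 0.001). Rows are split by whether any of the first 75 bases of the canonical transcript lie in an exon of another gene. Bars are medians (259 and 0.414 CPM), and the dashed line is the threshold of 5 CPM, which 5 of the 27 rows with a shared start passed.

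Among the members, COX4I1 of complex IV was the most abundant (mean 1277 CPM), followed by the complex I subunit NDUFB7 (1138 CPM), COX6B1 (1131 CPM) and ATP5MC2 (1050 CPM), which encodes the c subunit of the ATP synthase rotor. CAGE counts 1 tag per transcript end, so no length correction applies to these levels. In complex I, core subunits that carry flavin or iron-sulfur clusters were at 703 CPM (NDUFS8), 555 CPM (NDUFS7), 307 CPM (NDUFV1), 121 CPM (NDUFS1) and, with a shared start, 17.5 CPM (NDUFV2). In complex III UQCRH led with 876 CPM and the core protein UQCRC2 was lowest with 130 CPM. In complex V the catalytic ATP5F1B was at 699 CPM and its partner ATP5F1A at 195 CPM, although both form the same hexamer. The 3 genes of the c subunit were at 1050 CPM (ATP5MC2), 257 CPM (ATP5MC3) and 227 CPM (ATP5MC1), and the inhibitor ATP5IF1 was at 432 CPM. The steadiest members over the 24 libraries were NDUFA10, UQCRFS1 (the Rieske protein of complex III) and SDHB (the iron-sulfur subunit of complex II), with an SD of 0.21, 0.25 and 0.27 on the log2 scale. The most variable were NDUFA4L2 (SD 2.21), NDUFA11 (1.51) and NDUFB2 (1.17), the last 2 with a shared start.

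Before the comparisons, WWOX itself was examined. Its row held 33.9 to 40.1 CPM in U87MG “Vec” and 61.0 to 66.0 CPM in “WWOX”, and 20.4 to 22.2 CPM in DBTRG-05MG “Vec” and 28.0 to 31.97 CPM in “WWOX”, so that the libraries did not overlap. In T98G they overlapped, with 34.2 to 57.2 CPM and 45.1 to 61.8 CPM. In U251MG “Vec” held 31.4, 36.8 and 32.1 CPM, and the libraries labelled “WWOX” held 56.7, 17.4 and 38.0 CPM, the value of replicate 2 being the lowest of all 24 libraries. No line passed the test for this row (limma log2FC 0.66, 0.38, −0.01 and 0.39 in U87MG, T98G, U251MG and DBTRG-05MG, adjusted p = 0.137, 0.553, 1 and 0.770). Whether transcripts that start in the vector give tags in this row is not given in the sources used here. The study reports that Western blots of extracted protein bore out the efficiency of transduction. The 3 libraries labelled U251MG “WWOX” also stood apart from each other, with pairwise correlations across genes, which are not independent replicates, of 0.880 to 0.932 against 0.940 to 0.988 within the other groups. Results on U251MG are therefore given with and without single libraries.

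The lines were labelled as glioblastoma cells. Of 12 glioma and glial markers, CD44 was high in every library (678 to 3520 CPM), whereas GFAP was abundant in U251MG alone (2655 CPM in “Vec”, 4.34, 1.99 and 2.01 CPM in U87MG, T98G and DBTRG-05MG). The neural stem cell gene SOX2 was at 98.1 CPM in U251MG and 47.0 CPM in DBTRG-05MG “Vec” but at 0.0707 and 0.360 CPM in U87MG and T98G, and S100B, NES and FABP7 likewise averaged at most 1.93 CPM in “Vec” of the latter 2 lines. OLIG2 went the other way, with 1.35 and 1.79 CPM in U87MG and T98G “Vec” and 0.0494 and 0.0858 CPM in U251MG and DBTRG-05MG “Vec”. Of the 10 glial markers tested, 2 were higher and 8 lower in U87MG “Vec” than in the other lines (19.9% and 25.2% of all genes), and 1 was higher and 8 lower in T98G (20.1% and 20.4%). In U251MG 7 were higher and 1 lower (16.5% and 18.4%), and in DBTRG-05MG 6 were higher and 2 lower (22.7% and 19.9%). The leukocyte markers AIF1, CX3CR1 and P2RY12 were at 0 throughout, PTPRC averaged 0.00919 CPM, and CSF1R, the only one of 7 that was tested, held 10.2 CPM in U87MG “Vec” and at most 0.135 CPM in the other “Vec” groups (log2FC 4.29, higher). Of 5 endothelial markers, PECAM1 averaged 0.0575 CPM, and KDR and CDH5 were tested, with 4.65 and 2.84 CPM in U251MG “Vec”, where both were higher. The epithelial keratin KRT18 reached 1037 CPM in DBTRG-05MG “Vec”, with EPCAM at 0.195 CPM. Of 7 neuronal markers, RBFOX3 averaged 0.0201 CPM, whereas 3 others were tested. Of these 3, 1 was higher in U87MG “Vec”, 0 passed in T98G “Vec”, and 1 was higher and 1 lower in each of U251MG and DBTRG-05MG “Vec”. Between “WWOX” and “Vec”, 1 of the 10 glial markers tested was higher in U87MG, where 3.2% of all genes passed. In DBTRG-05MG 1 of the 10 was lower (1.02% of all genes passed). Of 2 endothelial markers tested, 1 was higher in U251MG (0.316% of all genes passed). Among the 3 neuronal, 1 leukocyte and 2 epithelial markers tested, 0 passed in any line.

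The first comparison asked how the subunits differed between the lines in control cells. Together they took 2.89% ± 0.232 (SD, n = 3) of the tags in DBTRG-05MG “Vec”, 2.34% ± 0.306 in U87MG, 2.16% ± 0.175 in T98G and 2.06% ± 0.207 in U251MG. Their summed level was 31011, 26436 and 29395 CPM in the DBTRG-05MG “Vec” libraries and 25976, 20042 and 24280 CPM in U87MG, 22598, 19565 and 22593 CPM in T98G, and 19916, 22987 and 19042 CPM in U251MG. In CPM as deposited every DBTRG-05MG library was above the 9 others. By complex, this held for complex IV (at least 7775 CPM against at most 7083 CPM) and complex V (at least 7115 CPM against at most 6894 CPM), whereas the sums of complexes I, II and III overlapped between DBTRG-05MG and the other lines. After TMM scaling none of these separations was left, as the lowest DBTRG-05MG library held 25270 and the highest of the others 29026 for all members, 7420 and 8147 for complex IV, and 6588 and 7703 for complex V. Summed levels were set by the abundant members and were not tested.

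**Figure D2:**
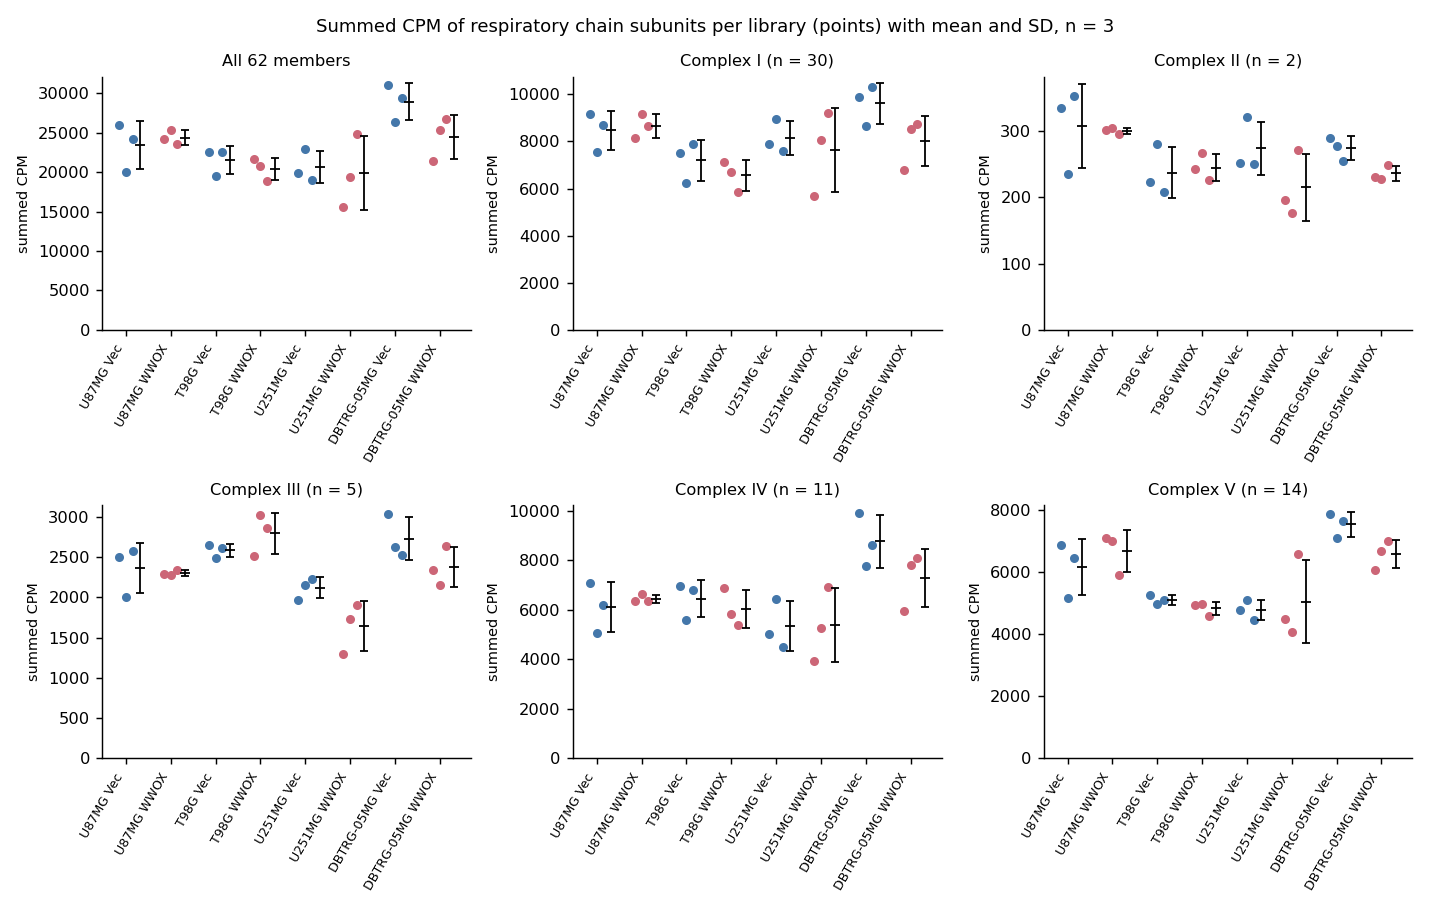
Summed CPM of the members, all together and by complex, in each library of the 8 groups (blue “Vec”, red “WWOX”), with mean and SD (n = 3). In these unscaled values DBTRG-05MG “Vec” lies above the other “Vec” libraries for all members and for complexes IV and V, a separation that is lost after TMM scaling, and the libraries labelled U251MG “WWOX” spread from 15584 to 24891 CPM.

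Member by member, each “Vec” group was tested against the mean of the other 3 with limma on log2(CPM + 0.5), adjusted over 12327 genes. In DBTRG-05MG 21 of 62 members (33.9%) passed, 16 higher and 5 lower, against 42.6% of all genes tested (22.7% higher, 19.9% lower). In U87MG 15 (24.2%) passed, 9 higher and 6 lower, against 45.1% (19.9% and 25.2%). In T98G 17 (27.4%) passed, 5 higher and 12 lower, against 40.5% (20.1% and 20.4%). In U251MG 14 (22.6%) passed, 1 higher and 13 lower, against 34.9% (16.5% and 18.4%). The 4 comparisons share their “Vec” libraries. In each, the share of members that passed lay below the share of all genes, a difference that was not tested. The counts fell to 12 without DBTRG-05MG “Vec” replicate 1 and 13 without replicate 3 (35.1% and 32.3% of all genes). They fell to 8 and 10 without T98G “Vec” replicates 1 and 3 (30.8% and 30.6%), and to 9, 7 and 7 without U251MG “Vec” replicates 1, 2 and 3 (27.9%, 29.6% and 27.3%). Medians of the members were 0.16, 0.20, −0.25 and −0.18, against 0.03, −0.05, −0.02 and 0.01 over all genes, in DBTRG-05MG, U87MG, T98G and U251MG. Of the 62, 24 passed in no line, as did 27.3% of all genes.

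Complex IV carried the most calls in DBTRG-05MG, with 6 of its 11 members higher and 2 lower (median log2FC 0.54). COX6A1 held 1353, 1186 and 1251 CPM in DBTRG-05MG and 421 to 638 CPM in the 9 other “Vec” libraries. It was higher in every library (log2FC 1.13, SE 0.189, adjusted p = 4.48e-05, limma). COX7C held 491, 362 and 568 CPM in DBTRG-05MG and 84.8 to 238 CPM in the others, again with no overlap (log2FC 1.51, SE 0.326, adjusted p = 0.000699). NDUFA4, long listed with complex I and now placed in complex IV, rose by 1.08, COX7B by 0.96 and COX5A by 0.54 on the log2 scale. The lower 2 were COX4I1 (−0.65) and COX7A2L (−0.78), the latter a factor that joins complexes III and IV. The call of COX7A2L was lost without DBTRG-05MG “Vec” replicate 1 or replicate 3 (log2FC −0.45 without the latter).

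COX4I1, a core nuclear subunit of complex IV, had the largest rise in T98G among the members that passed. It held 2085, 1446 and 2304 CPM in T98G “Vec”, 1601, 1076 and 1286 CPM in U87MG, 856, 983 and 826 CPM in U251MG and 1052, 886 and 864 CPM in DBTRG-05MG. T98G and U87MG overlapped, and T98G lay above the other lines (log2FC 1.02, SE 0.247, adjusted p = 0.00209). UQCRH, the hinge protein of complex III, was higher in T98G as well (0.89, adjusted p = 0.00482), while 9 complex I members were lower and 2 higher there. Among the lower ones were NDUFS1 (−0.64), NDUFC1 (−0.96) and NDUFB3 (−1.08, lost with the replicate block and without any of the T98G “Vec” replicates).

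In U251MG the 3 largest falls among the members that passed were in NDUFA4L2, COX7C and NDUFA6, the last an accessory subunit of complex I. NDUFA6 held 211, 290 and 209 CPM there, 313, 224 and 380 CPM in U87MG, 408, 493 and 374 CPM in T98G, and 653, 533 and 552 CPM in DBTRG-05MG (log2FC −0.93, SE 0.185, adjusted p = 0.000362). U251MG and U87MG overlapped, and both other lines were higher. COX7C (−1.04, lost with CPM as deposited and without U251MG “Vec” replicate 1 or 3, −0.81 without the latter), ATP5F1B (−0.92), ATP5MC2 (−0.90), UQCRC2 (−0.80) and UQCRH (−0.78) were lower there too. In U87MG the ATP synthase genes ATP5MJ (log2FC 0.98, adjusted p = 0.000315), ATP5IF1 (0.84), ATP5MC1 (0.75) and ATP5PB (0.71) were higher, with NDUFB1 (0.90) and the membrane anchor SDHC (0.74). ATP5MJ held 507, 309 and 496 CPM in U87MG “Vec” and 135 to 329 CPM in the 9 others. Replicate 2 of U87MG thus lay within the range of the others in CPM, and all 3 lay above it after scaling.

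NDUFA4L2, a paralog of NDUFA4 known as a target of hypoxia-inducible factor, was the member that varied most. It held 325, 68.1 and 133 CPM in DBTRG-05MG “Vec”, 45.3, 27.4 and 58.4 CPM in T98G, 14.1, 11.3 and 2.45 CPM in U87MG and 19.1, 1.19 and 14.1 CPM in U251MG. In CPM, DBTRG-05MG was above the other lines in every library, whereas after scaling its replicate 2 overlapped them (log2FC 3.21, SE 0.765, adjusted p = 0.00171). U87MG (−2.06, adjusted p = 0.0325) and U251MG (−2.29, adjusted p = 0.0229) overlapped each other. In U251MG the call was lost without U251MG “Vec” replicate 2 (−1.16) and with edgeR (adjusted p = 0.0625). In U87MG it was lost with limma-voom (0.0561), with no filter on low values (0.0626) and with the replicate block (0.0538). It was also lost there without U87MG “Vec” replicate 3 (−1.29) and without DBTRG-05MG replicate 1, T98G replicate 3, or U251MG replicate 1 or 3 of “Vec”. Within DBTRG-05MG it had the same order over replicates as the summed level of 20 hypoxia and glycolysis genes, which was 20978, 9710 and 16555 CPM in “Vec” and 9502, 17154 and 21800 CPM in “WWOX”, where NDUFA4L2 held 90.8, 672 and 908 CPM. The summed level of all members, and that of complex IV, had the same order in both groups. The part of those genes in its spread was not tested. In NDUFA4, 1087, 933 and 999 CPM in DBTRG-05MG “Vec” stood against 250 to 857 CPM in the others.

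NDUFA11 and NDUFB2, both with a shared start, also differed widely. NDUFA11 held 31.2, 38.6 and 30.4 CPM in U251MG “Vec” and at most 4.38 CPM in the other “Vec” libraries (log2FC 3.77, adjusted p = 7.41e-11). NDUFB2 held 52.1, 48.1 and 47.7 CPM in U87MG “Vec” and at most 25.0 CPM elsewhere (log2FC 2.09, adjusted p = 4.6e-06). Whether these tags belong to the subunit or to the overlapping gene cannot be told apart in the table. Without the 5 members that share a start, 12, 14, 13 and 20 of 57 passed in U87MG, T98G, U251MG and DBTRG-05MG, against 44.5%, 40%, 34.4% and 42.3% of all 10636 tested protein-coding genes with no shared start.

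**Figure D3:**
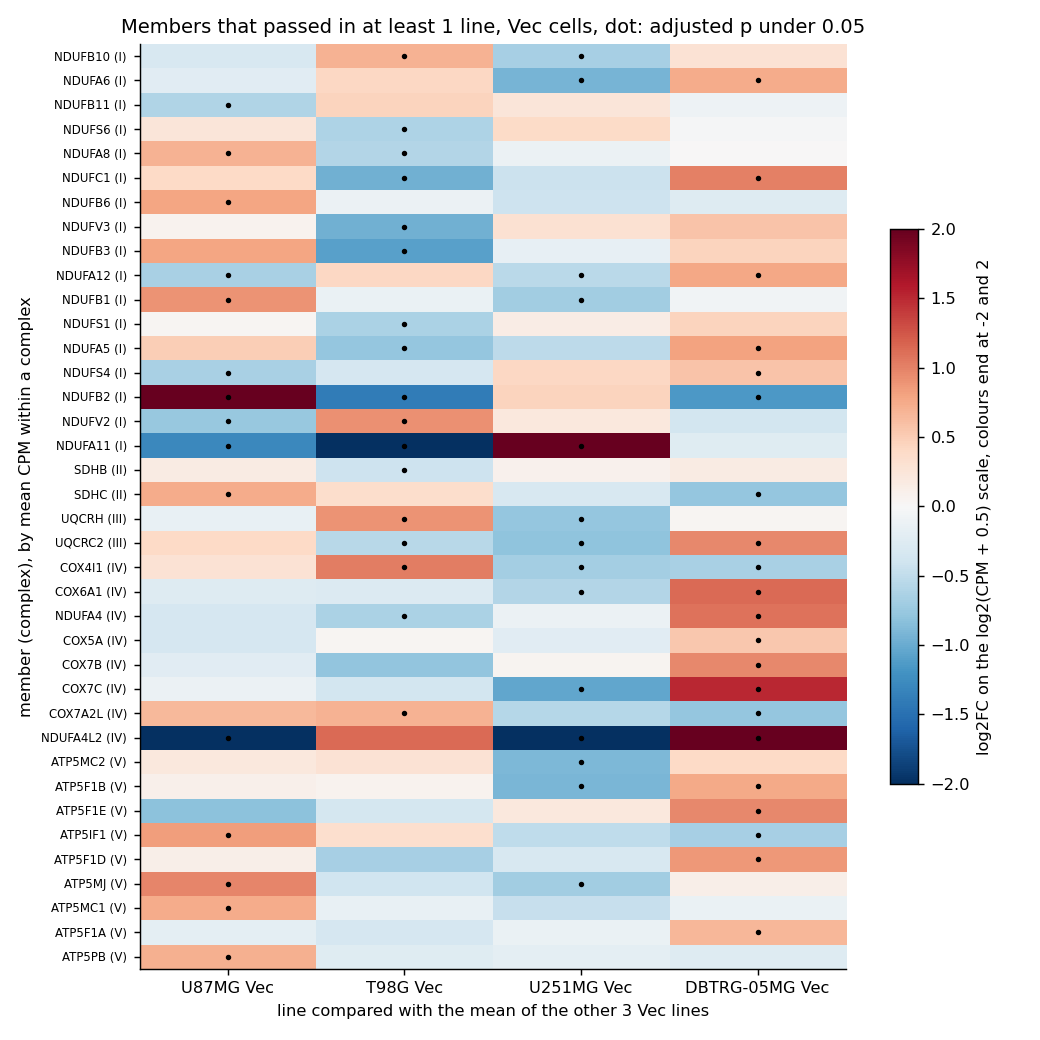
log2FC of the 38 members that passed in at least 1 line, in “Vec” cells of a line against the mean of the other 3 “Vec” lines (red higher, blue lower, colours end at −2 and 2), with a dot where the adjusted p was under 0.05. The DBTRG-05MG column shows 16 higher and 5 lower members, the U251MG column 1 higher and 13 lower.

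The chromosome of a member moved with part of these differences. In DBTRG-05MG “Vec” the 652 tested genes of chromosome 12 had a median log2FC of 0.41, and the chromosome 12 members COX6A1, ATP5F1B, NDUFA12 and NDUFA4L2 were higher there. In U251MG the chromosome 12 median was −0.46, and these 4 and ATP5MC2 were lower. The 300 genes of chromosome 22, which carries NDUFA6, had a median of −0.50 in U251MG, those of chromosome 14, with ATP5MJ and NDUFB1, 0.47 in U87MG, and those of chromosome 16, with COX4I1 and NDUFB10, 0.46 in T98G. UQCRC2 on chromosome 16 was lower in T98G (−0.55) against its chromosome. Over the 4 comparisons, 17 of the 20 member calls (85.0%) on a chromosome shifted by at least 0.25 from the median of all genes had the sign of that shift, against 76.1% of 3822 calls of all genes on such chromosomes. The part of the chromosome in these differences was not tested.

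Other gene groups were followed over the same libraries, where 22.7% of all genes were higher and 19.9% lower in DBTRG-05MG “Vec”. The 81 tested genes of cytosolic ribosomal proteins had a median of −0.50 in DBTRG-05MG “Vec” (29 lower, 0 higher) and 0.51 in U87MG (28 higher, 4 lower), and the 36 proteasome subunits had −0.56 (16 lower, 0 higher) and 0.63 (19 higher, 0 lower), against 19.9% higher and 25.2% lower of all genes in U87MG. The 19 enzymes of the tricarboxylic acid cycle and pyruvate entry, which feed the chain with NADH, had a median of 0.45 in DBTRG-05MG with 7 higher and 2 lower. These 7 included SUCLA2 (1.27), DLD (1.21), IDH3A (1.05) and citrate synthase, CS (0.61), while mitochondrial IDH2 (−1.45) and pyruvate carboxylase, PC (−0.51), were lower. Of 18 regulators of mitochondrial biogenesis tested, 2 were higher in DBTRG-05MG, namely PPARGC1A, the coactivator PGC-1α (24.4 CPM against 2.004, 6.94 and 6.40 CPM in U87MG, T98G and U251MG, log2FC 2.17, adjusted p = 1.49e-06), and the nuclear receptor ESRRG (log2FC 1.73). PPARGC1B (−1.23) and GABPB2 (−0.62) were lower, so that the calls of this list did not exceed the shares of all genes. In U251MG “Vec” 3 of the 18 were higher, NRF1 (0.78), TFAM (0.75) and TWNK (1.08), and 2 were lower, PPARGC1B (−1.22) and POLG (−0.68), against 16.5% and 18.4% of all genes. Assembly factors had medians in DBTRG-05MG of −0.22 (complex I), −0.11 (complexes II and III), −0.10 (complex IV) and 0.36 (complex V, 4 genes), and the 72 mitochondrial ribosomal proteins had a median of −0.06 (13 higher, 16 lower).

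The second comparison, “WWOX” versus “Vec” within each line, addressed the effect of WWOX. The test was passed by 0 of 62 members in U87MG (3.2% of all genes) and by 0 in T98G (1.14%). It was passed by 1 member in U251MG, which was lower (0.316% of all genes, 0.203% lower), and by 0 in DBTRG-05MG (1.02%). In the same order of lines, 2, 6, 11 and 6 members had an unadjusted p under 0.05, against 11.5%, 11.5%, 11.5% and 7.63% of all genes. The edgeR quasi-likelihood test on recovered tags called 0 members in each line.

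The member that passed was ATP5F1A, the α subunit of the ATP synthase catalytic head, on the minus strand of chromosome 18 (chr18:46080248-46104334, GENCODE 44). It held 150, 213 and 184 CPM in U251MG “Vec” and 81.8, 70.8 and 120 CPM in “WWOX”. The groups did not overlap, and the log2FC was −1.04 (SE 0.204, adjusted p = 0.0230, limma). The call was lost without U251MG “Vec” replicate 2 (log2FC −0.96, adjusted p = 0.105) or “Vec” replicate 3 (−1.01, 0.172). It was also lost without “WWOX” replicate 1 (−0.89, 0.0875) and with the replicate block (−1.04, 0.116). With CPM as deposited (−1.02, 0.0686) and with edgeR (−1.02, 0.0530) it did not pass either. In a model of U251MG alone the adjusted p was 0.998 (log2FC −1.07). In U87MG the gene held 137, 147 and 186 CPM in “Vec” and 252, 237 and 204 CPM in “WWOX”, higher without overlap (log2FC 0.50, adjusted p = 0.277). T98G (0.28) and DBTRG-05MG (−0.03) overlapped. The 177 tested genes of chromosome 18 had a median log2FC of 0.28, 0.04, −0.09 and 0.18 in U87MG, T98G, U251MG and DBTRG-05MG.

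Next to ATP5F1A in U251MG stood 3 core subunits whose libraries did not overlap but which did not pass. UQCRC2, a core protein of complex III, held 77.0, 74.6 and 94.5 CPM in “Vec” and 54.0, 30.3 and 44.6 CPM in “WWOX” (log2FC −0.97, SE 0.229, adjusted p = 0.0739). NDUFS1, the largest iron-sulfur subunit of complex I, held 109, 165 and 143 CPM and 85.1, 49.0 and 83.0 CPM (−0.97, SE 0.246, adjusted p = 0.102). NDUFV2, which has a shared start, held 17.3, 22.0 and 20.5 CPM and 8.99, 8.37 and 15.4 CPM (−0.90, SE 0.203, adjusted p = 0.0586). In all, 8 members were lower and 1 higher without overlap in U251MG, against 5.01% and 5.43% of all genes. Without the library labelled U251MG “WWOX” replicate 2, 9 members passed, all lower, against 4.52% of all genes. Among them were NDUFS1 and NDUFV2, which carry iron-sulfur clusters of complex I, CYC1 (log2FC −1.38), UQCRC1 (−1.27) and UQCRC2 (−0.97) of complex III, and ATP5F1A (−1.10). Without replicate 3 of that group, 2 passed (ATP5F1A and NDUFV2), against 0.553% of all genes. Without replicate 1, 0 passed, a count that was not set against the share of all genes. The median log2FC of the 62 members was −0.11 in U251MG and ranged from −0.31 to 0.04 as single libraries were left out.

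**Figure D4:**
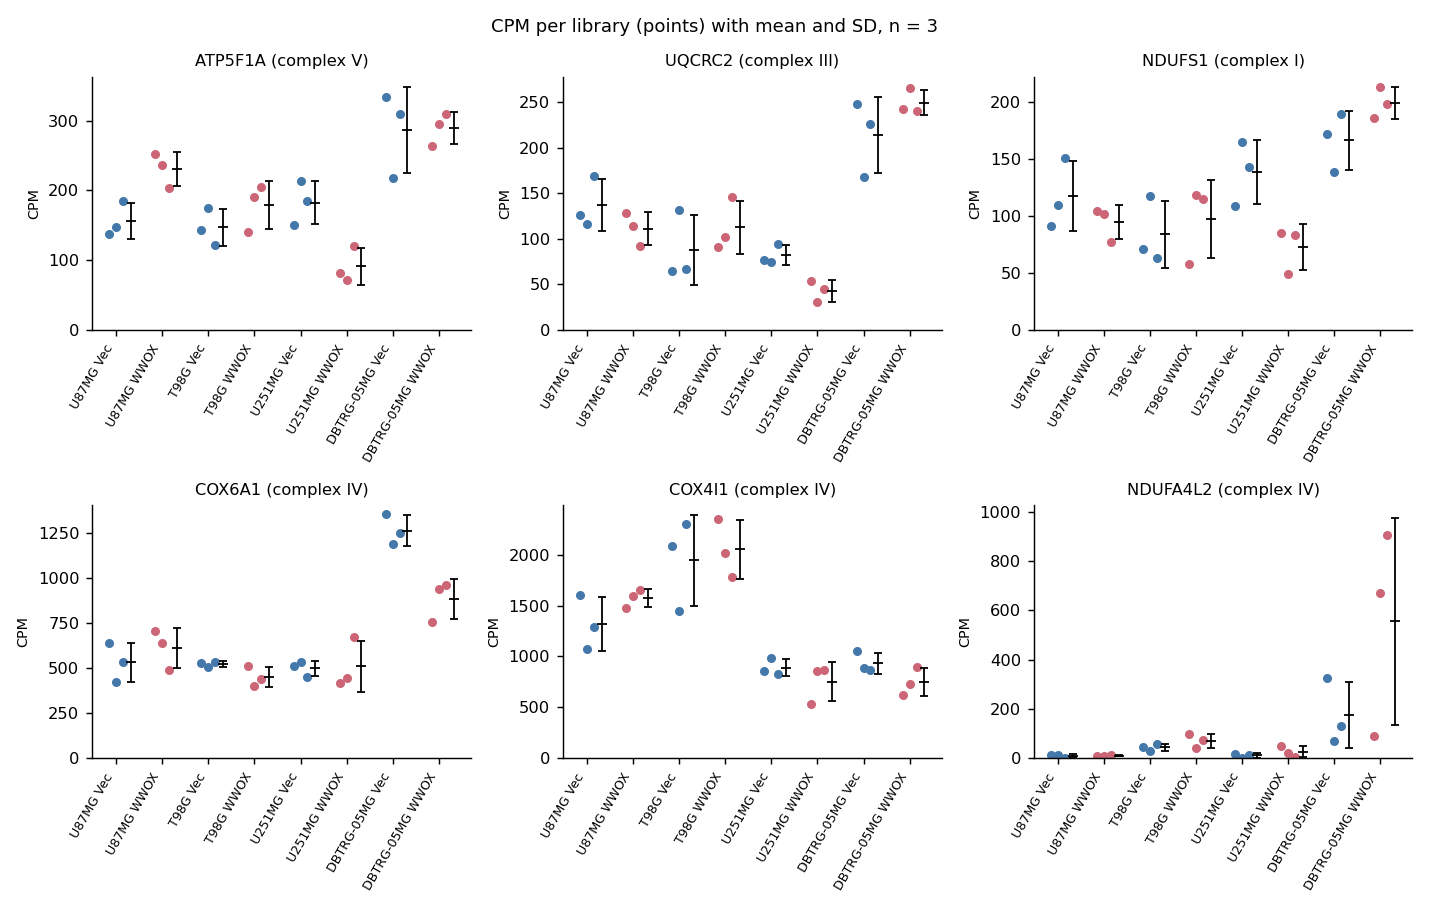
CPM of 6 members in each library of the 8 groups (blue “Vec”, red “WWOX”), with mean and SD (n = 3). ATP5F1A, UQCRC2 and NDUFS1 are lower in the libraries labelled U251MG “WWOX” than in U251MG “Vec”, COX6A1 is highest in DBTRG-05MG “Vec”, COX4I1 in T98G, and NDUFA4L2 varies between replicates of DBTRG-05MG.

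In DBTRG-05MG 46 of the 62 members had a negative log2FC (74.2%, against 49.4% of all genes), with a median of −0.30 against 0.00, but none passed the test. Libraries did not overlap in 21 members that were lower (33.9%, against 10.3% of all genes) and in 2 that were higher (ATP5F1E and ATP5MK, against 9.46%). The median ranged from −0.41 to −0.18 as single libraries were left out. The lower 21 comprised 9 members of complex I, 2 of complex III, 3 of complex IV and 7 of complex V. COX6A1 held 1353, 1186 and 1251 CPM in “Vec” and 756, 938 and 960 CPM in “WWOX” (log2FC −0.59, SE 0.232, adjusted p = 0.456). ATP5F1B, the catalytic β subunit, held 1353, 974 and 1204 CPM and 659, 885 and 946 CPM (log2FC −0.57). NDUFA2, an accessory subunit of complex I, held 185, 146 and 151 CPM and 58.2, 97.6 and 109 CPM (−0.97, SE 0.315, adjusted p = 0.253). CYC1, cytochrome c1 of complex III, held 614, 395 and 513 CPM and 193, 279 and 332 CPM (−0.99, SE 0.490, adjusted p = 0.671), the largest fall in the line. NDUFA4L2 had the largest positive value in DBTRG-05MG (1.35, adjusted p = 0.873) and in U251MG (1.35, adjusted p = 0.634), with overlap in both. The summed level was 31011, 26436 and 29395 CPM in “Vec” and 21401, 25364 and 26723 CPM in “WWOX”, with overlap between the groups.

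In U87MG and T98G the members had a median of 0.05 and −0.06 against 0.00 and −0.04. The extremes of U87MG were NDUFS6 of complex I, with 375, 276 and 404 CPM in “Vec” and 564, 558 and 517 CPM in “WWOX” (log2FC 0.59, adjusted p = 0.299), and NDUFV1, the NADH-binding subunit, with 399, 385 and 394 CPM and 234, 308 and 351 CPM (−0.48, adjusted p = 0.736). The median of U87MG turned to −0.10 when U87MG “Vec” replicate 2 was left out. In T98G NDUFA1 held 301, 272 and 197 CPM and 127, 152 and 90.3 CPM (−1.07, SE 0.337, adjusted p = 0.146). NDUFA11, with a shared start, had the largest rise there (0.96, adjusted p = 0.155) at levels of 0.492 to 2.60 CPM. In both lines some members did not overlap, 4 lower and 2 higher in U87MG (9.77% and 7.74% of all genes) and 3 lower and 6 higher in T98G (9.21% and 7% of all genes).

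**Figure D5:**
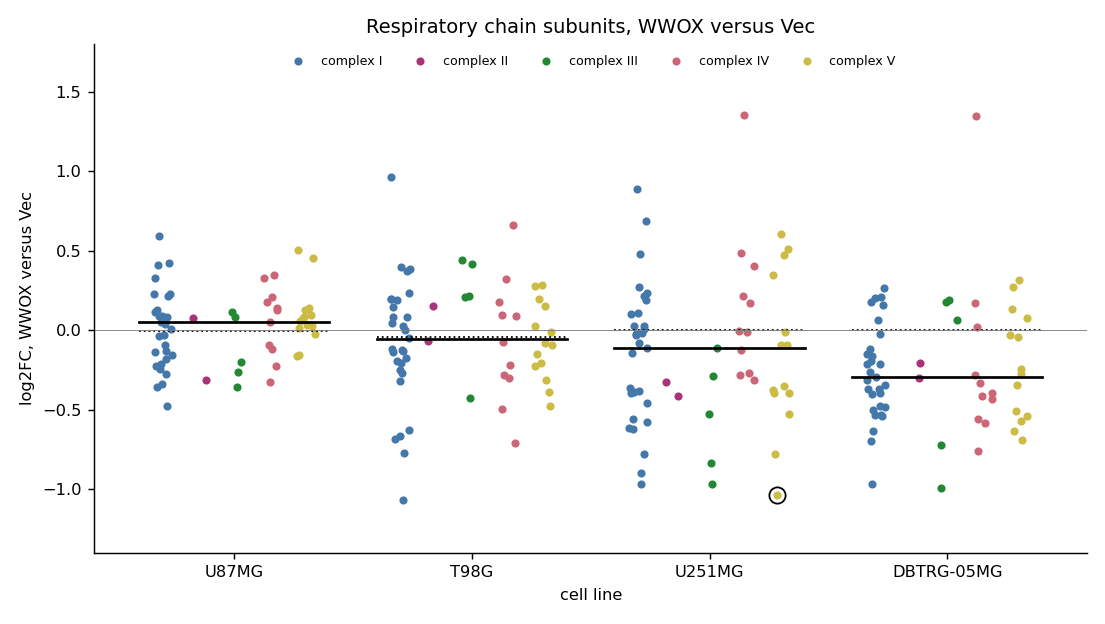
log2FC of the 62 members, “WWOX” versus “Vec”, in each line by complex, with the median of the members (solid) and of all 12327 genes (dotted). The ring marks ATP5F1A in U251MG, the member that passed, and the solid line lies furthest below the dotted line in DBTRG-05MG.

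Averaged over the 4 lines, 0 members passed (1.78% of all genes did), 46 of 62 had a negative mean log2FC (52% of all genes), and 10 were below an unadjusted p of 0.05 (15.4% of all genes were), all lower. The extremes were CYC1 (−0.55, SE 0.245, adjusted p = 0.284) and NDUFA4L2 (0.92, SE 0.469, adjusted p = 0.352). The log2FC was negative in all 4 lines for 11 of the 62 members (10.7% of all genes), ATP5F1B, COX6B1, COX7A2, CYC1, NDUFA4, NDUFA8, NDUFB10, NDUFB2, NDUFB7, NDUFS8 and SDHC, and positive in all 4 for 5 (8.23% of all genes), COX7A2L, COX7B, NDUFA4L2, NDUFA5 and NDUFS4. Without the library labelled U251MG “WWOX” replicate 2, 5 members passed, all lower, against 6.9% of all genes. They were CYC1 (−0.77), COX7A2 (−0.64), UQCRC1 (−0.50), NDUFS8 (−0.45) and ATP5F1B (−0.40).

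The effect differed between lines for 2 members by the F test of limma (3.5% of all genes). For ATP5F1A the adjusted p was 0.00795, with the lower value in U251MG against higher or level values elsewhere, and 0.0739 with the replicate block. For UQCRC2 it was 0.0466, with log2FC values of −0.36, 0.41, −0.97 and 0.18 in U87MG, T98G, U251MG and DBTRG-05MG, and it no longer passed with the replicate block (adjusted p = 0.201) or in 17 of the 24 removals of 1 library.

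Related groups showed few calls for “WWOX” too. SDHAF3, an assembly factor of complex II, rose in U87MG from a mean of 4.57 to 22.5 CPM (log2FC 2.11, adjusted p = 0.000845). PC fell in U87MG (log2FC −1.25, adjusted p = 0.00375), and COQ10A, of the coenzyme Q pathway, fell in T98G (−1.36, adjusted p = 0.0374). No other listed assembly factor, electron carrier gene, biogenesis regulator, tricarboxylic acid cycle enzyme or mitochondrial ribosomal protein passed in any line. In U251MG 63 of 72 mitochondrial ribosomal protein genes and 16 of 19 tricarboxylic acid cycle genes had a negative log2FC (medians −0.23 and −0.32). So had 34 of 36 proteasome genes (−0.52, 1 lower, against 0.203% of all genes). The median of all genes was 0 there, and the libraries labelled U251MG “WWOX” stood apart from each other, as described above. In DBTRG-05MG 15 of the 19 tricarboxylic acid cycle genes were negative (−0.27), against 49.4% of all genes. T98G, where the median of all genes was −0.04, went the other way, with 14 of the 19 tricarboxylic acid cycle genes positive (0.12). So were 42 of 72 mitochondrial ribosomal protein genes (0.06) and 23 of 36 proteasome genes (0.08) in that line. Of 19 hypoxia and glycolysis genes tested, 0 passed in any line, with medians of −0.28, 0.02, 0.51 and 0.28 in U87MG, T98G, U251MG and DBTRG-05MG, and of 81 cytosolic ribosomal protein genes 0 passed (0.08, −0.15, −0.02 and −0.01).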

How the data were processed

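RNA of 24 cultures was profiled by CAGE-Seq. Per the labels and the study's methods, the authors mapped reads to hg38 with STAR and deposited CPM (tag counts scaled by library total) per Ensembl gene. All values were whole tags to within 0.01 tags (100% of values), and recovered totals were 10756072 to 16953689 tags. How tags in overlapping genes were assigned is not given in the sources used here. Names and coordinates came from GENCODE 44, matching 43033 of 43037 rows.

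The 12327 genes that reached 5 CPM in some library were scaled by TMM (factors 0.798 to 1.22) and tested as log2(CPM + 0.5) with limma 3.58.1 (trend, 8 groups, 16 residual degrees of freedom) in R 4.3.3, with Benjamini-Hochberg adjustment over all genes and a threshold of 0.05. A log2FC on this scale understates the change of low genes. Alternatives were limma-voom and edgeR 4.0.16 on recovered tags. The study ran limma-voom on resampled counts, which were not used here. The code was tested on simulated data. P-values measure the spread between these cultures, and an exact permutation of 3 against 3 libraries cannot go below 0.1.

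Members and lists were chosen with earlier results of these data known. Named members were the largest rises and falls per line, the extremes of each complex by level and of spread, core subunits, paralog sets and members that differed between lines. Other members given in single clauses were chosen after their values were seen. Lists covered assembly factors, electron carriers, biogenesis regulators, tricarboxylic acid cycle enzymes, mitochondrial and cytosolic ribosomal proteins, proteasome subunits, hypoxia and glycolysis genes, and markers of other cell types. Overlap statements use CPM for printed values and scaled values for counts. Not every member is reported by name here.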

Additional observations from a re-analysis of the deposited data

Results flagged for a closer look

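The response to “WWOX” differed between the lines for 2 members (3.23%) by the F test of limma, against 3.5% of all genes. For ATP5F1A the adjusted p was 0.00795, between 0.00575 and 0.0314 as each library was left out, and 0.0739 with the replicate block, so that the call was lost there. For UQCRC2 the adjusted p was 0.0466, from 0.00766 to 0.142 as each library was left out, and 0.201 with the replicate block. Both had their lowest log2FC in U251MG, the line whose libraries labelled “WWOX” spread most.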

How the results depend on the processing

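Of 1129 comparisons of single members with an alternative, 1078 kept direction and side of the threshold, 50 fell below it, 1 rose past it and 0 reversed. These totals include removals of libraries from other lines. Such removals reach a “WWOX” comparison only through scaling, filtering, adjustment and the shared spread, so agreement there says little. The U251MG “WWOX” count of 1 became 2 without a filter (ATP5F1A and NDUFV2), and 0 with CPM as deposited, with edgeR and in a separate model of U251MG, and 0 to 9 with single libraries left out. The count of members that differed between lines, 2, became 1 with a filter on the mean, with CPM as deposited, with edgeR and with limma-voom, and 1 to 5 with libraries left out. The count for the mean over lines ranged from 0 to 5, that for U87MG “Vec” from 11 to 21, T98G from 8 to 20, U251MG from 7 to 17 and DBTRG-05MG from 12 to 23. Medians for “WWOX” ranged from −0.10 to 0.14 in U87MG, −0.14 to 0.01 in T98G, −0.31 to 0.04 in U251MG and −0.41 to −0.18 in DBTRG-05MG. The “WWOX” counts of U87MG, T98G and DBTRG-05MG were 0 in every alternative run. In “Vec”, the split of higher and lower members moved in U87MG from 9 and 6 to 8 and 8 with CPM as deposited and to 12 and 4 with limma-voom, and in U251MG from 1 and 13 to 2 and 9 with CPM as deposited. With TMM-scaled sums, an alternative chosen after seeing the data, DBTRG-05MG “Vec” averaged 26947 in place of 28947 CPM and overlapped U87MG and T98G. Without TMM the median of all genes was shifted by −0.17 in U87MG, −0.14 in T98G and 0.18 in DBTRG-05MG.

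Same-numbered libraries deviated together (r above 0.1) in 4 of 12 pairs, and 3 of 12 libraries correlated best with their own number, so the numbers do not pair the samples. With the replicate block, U251MG “WWOX” had 0 calls, the difference between lines 0, T98G “Vec” 11 and U251MG “Vec” 9. The counts with the block were not set against the share of all genes. The block fits added terms for replicate number in each line, which leaves every gene fewer than the 16 residual degrees of freedom above. With it the log2FC of ATP5F1A in U251MG stayed at −1.04. The cause of these changes was not tested. At these depths a count of 0 allows up to 0.279 CPM, a limit that covers counting error only. The SEs are those of limma and rest on the spread between libraries.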
